A study of Mus musculus with 2 samples.

Results

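Spleen T cells of mice killed 8 h after an injection of remimazolam were compared with those of mice killed 4 h after it. A cell was taken when its sample tag placed it in the 8 h or the 4 h group, when it held at least 200 genes and under 25% mitochondrial molecules, and when it held at least 1 molecule of the CD3 chain genes Cd3d, Cd3e and Cd3g. These rules kept 5132 of the 5439 cells called for 8 h and 5133 of the 5453 called for 4 h, or 10265 of the 17299 cells in the files. CD4 T cells, with a molecule of Cd4 and none of Cd8a or Cd8b1, numbered 1865 at 4 h and 2021 at 8 h. CD8 T cells, with a molecule of Cd8a or Cd8b1 and none of Cd4, numbered 2057 and 1945. The remaining T cells held molecules of both kinds (269 at 4 h and 270 at 8 h) or of neither (942 and 896).

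All mice were female C57BL/6, with the strain labelled C57/BL6N, and no age was given. Each group had 3 mice, which received saline or remimazolam at 6 mg/kg, and the cells of a group shared 1 sample tag, so the mice within a pool cannot be told apart. Remimazolam is a short-acting benzodiazepine that acts on the GABA(A) receptor. The saline pool, labelled as 0 h, was left out of the comparison. Its levels are given beside many of the named genes, though not all, as the background measured the same way. Saline was sampled at a single time, so neither later time has its own control. The 3 pools were captured together and sequenced as one BD Rhapsody library with a tag library, and the sort is labelled CD45+CD3+CD5+ in one place and CD45+ in another.

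With 1 pool per time point there was no replicate check and no test between the time points. Each gene is given as molecules per 1000000 molecules of the pool (CPM) and as the ratio of the 8 h level to the 4 h level, with an exact 95% interval that covers counting error only. A gene was counted as higher or lower when its ratio was at least 1.2 or at most 0.833, its interval left out 1 and it had at least 100 molecules over both pools. The pools had nearly equal depth, with 14116220 molecules in the 4 h T cells and 14092549 in the 8 h T cells. The median T cell held 2529 molecules and 1287 genes at 4 h, and 2532 molecules and 1289 genes at 8 h. Median mitochondrial shares were 9.77% and 9.96%. A level of 3 molecules, the most that a count of 0 allows, was 0.213 CPM in either pool. Of the reads of both tags, 99.3% in the 4 h T cells and 99.6% in the 8 h T cells belonged to the cells' own tag.

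The pathways described first govern how a lymphocyte obtains and disposes of lipid. When sterol in the endoplasmic reticulum is low, SREBP transcription factors are released from the INSIG proteins and switch on the enzymes of cholesterol synthesis. When oxysterols are plentiful, the LXR receptors switch on the cholesterol exporters of the ABC family. T cells engage sterol synthesis when they are activated and divide, and carnitine palmitoyltransferase, the gate of mitochondrial fatty acid oxidation, serves resting and memory cells. Type I interferon acts on the same cells through STAT and IRF factors, which bind an element called the ISRE in front of antiviral genes.

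The start regions of genes from these groups are shown first, because sterol genes and interferon genes are the groups with known shared control elements that the comparison describes first. RefSeq promoter sequences (GRCm38.p6) were matched by symbol for 19 of the 30 genes of the sterol and fatty acid synthesis list and for 31 of the 40 genes of the interferon response list. The 250 bases before each start were searched on both strands for CCAAT, the letters of a CCAAT box, for TCACNCCAC, the core of a sterol regulatory element, and for GAAA followed after any 2 bases by GAAA, the core of an ISRE. The letters of a CCAAT box were found in 15 of the 19 sterol genes, against 37.5% of all 27025 gene symbols in the table. The core of a sterol element was found in 1 of the 19, Hmgcs1, against 1.22% of all symbols. The core of an ISRE was found in 19 of the 31 interferon genes and in 0 of the 19 sterol genes, against 3.46% of all symbols. A match describes letters and not a bound site. In the sequences below, written 5′ to 3′ along the gene's strand, capitals mark the matched letters of these motifs on either strand.
Hmgcs1, the synthase of the first committed steps, chr13:119690101-119690350, + strand: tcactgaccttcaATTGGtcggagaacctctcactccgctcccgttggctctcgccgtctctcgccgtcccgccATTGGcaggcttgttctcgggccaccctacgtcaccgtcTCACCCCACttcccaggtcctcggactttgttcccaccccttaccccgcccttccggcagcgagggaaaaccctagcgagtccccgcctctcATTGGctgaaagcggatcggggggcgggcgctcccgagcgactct
Sc5d, a sterol desaturase of the late steps, chr9:42264301-42264550, − strand: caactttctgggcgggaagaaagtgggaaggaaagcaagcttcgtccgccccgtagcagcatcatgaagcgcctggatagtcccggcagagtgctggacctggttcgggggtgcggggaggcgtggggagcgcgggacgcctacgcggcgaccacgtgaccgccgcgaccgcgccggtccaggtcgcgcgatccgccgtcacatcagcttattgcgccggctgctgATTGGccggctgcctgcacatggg
Rsad2, the antiviral enzyme viperin, chr12:26456453-26456702, − strand: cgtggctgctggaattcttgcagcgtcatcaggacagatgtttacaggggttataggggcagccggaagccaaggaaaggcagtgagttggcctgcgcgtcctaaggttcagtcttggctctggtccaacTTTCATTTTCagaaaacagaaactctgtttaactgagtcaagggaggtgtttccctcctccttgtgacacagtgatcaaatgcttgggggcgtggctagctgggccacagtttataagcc
Isg15, a ubiquitin-like modifier, chr4:156200819-156201068, − strand: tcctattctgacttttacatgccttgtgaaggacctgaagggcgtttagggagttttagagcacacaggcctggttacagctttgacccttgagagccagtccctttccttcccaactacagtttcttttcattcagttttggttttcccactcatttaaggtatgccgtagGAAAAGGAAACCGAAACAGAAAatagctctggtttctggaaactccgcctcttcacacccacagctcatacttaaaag
Igtp, an interferon-induced GTPase, chr11:58199306-58199555, + strand: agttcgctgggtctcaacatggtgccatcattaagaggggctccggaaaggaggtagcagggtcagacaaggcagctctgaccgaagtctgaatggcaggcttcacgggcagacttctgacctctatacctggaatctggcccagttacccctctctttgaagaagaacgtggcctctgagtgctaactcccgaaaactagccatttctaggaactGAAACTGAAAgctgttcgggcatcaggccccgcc

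Across all T cells, 9554 genes had at least 100 molecules, and their ratios lay close to 1. The median log2 ratio was -0.02, and the central 90% lay between -0.27 and 0.21. Of these genes, 122 (1.28%) were counted as higher at 8 h and 277 (2.90%) as lower. Intervals left out 1 on the high side for 440 genes and on the low side for 779, where 95% intervals on equal levels would give about 239 on each side. In CD4 T cells 186 of 8053 genes (2.31%) were counted as higher and 281 (3.49%) as lower. In CD8 T cells 175 of 8192 genes (2.14%) were higher and 246 (3.0%) lower. The split between higher and lower depended on the scaling. With TMM scaling, which shifted the log2 ratio of every gene by 0.019 in all T cells, 41.1% of the counted genes were higher, against 30.6% when scaled to total molecules. In summed pools, fewer cells of a type and fewer molecules per cell cannot be told apart.

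Several genes of sterol synthesis were higher at 8 h than at 4 h. Of the 26 members of the sterol and fatty acid synthesis list with 100 molecules, 23 had a ratio above 1, and 9 were counted as higher and 0 as lower, against 1.28% of all genes higher. The median log2 ratio of the list was 0.15 in all T cells, 0.18 in CD4 and 0.15 in CD8 T cells, against -0.02, -0.02 and -0.01 over all genes. It was 0.15 with the mix of cell classes held fixed and 0.15 without cells that held molecules of innate-like T cells.

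The steps from acetyl-CoA to squalene opened the pathway. Idi1, the isopentenyl isomerase (chr13:8885501-8892451), stood at 26.2 CPM at 4 h and 39.1 at 8 h (saline 39.4), a ratio of 1.49 (1.31 to 1.71). Sqle, the squalene epoxidase that performs the first oxygenation (chr15:59315077-59331192), stood at 8.78 and 14.6 CPM (saline 15.2), a ratio of 1.66 (1.33 to 2.10). In both genes the 4 h pool was the low pool, and the 8 h level lay close to the saline level. Hmgcs1, an early synthase of the pathway, was not counted, at 37.8 and 41.8 CPM with a ratio of 1.10 (0.981 to 1.24).

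Some later enzymes were higher at 8 h too, though not all had the 4 h pool apart from saline. Cyp51, the lanosterol demethylase (chr5:4081145-4104746), stood at 22.5 CPM at 4 h and 32.0 at 8 h (saline 31.5), a ratio of 1.42 (1.23 to 1.65). Msmo1, the sterol methyl oxidase, stood at 25.9 and 32.9 CPM (saline 33.3), a ratio of 1.27 (1.10 to 1.46). Nsdhl, a dehydrogenase of the same demethylation complex, stood at 10.2 and 14.0 CPM (saline 12.3) with a ratio of 1.38 (1.11 to 1.72). The desaturase Sc5d, which acts near the end of the pathway, stood at 40.4 and 49.0 CPM (saline 45.4) with a ratio of 1.21 (1.08 to 1.35). For Nsdhl in CD4 T cells the levels were 11.4 and 16.7 CPM, with saline at 11.9. For Sc5d in CD8 T cells they were 30.4 and 38.2 CPM, with saline at 31.1. In these 2 cases the 4 h level lay close to saline and the 8 h level was higher. Dhcr7, which performs the final reduction to cholesterol, stood at 21.5 CPM in both pools with a ratio of 0.998 (0.849 to 1.17), and Lss, Fdft1 and Hsd17b7 had ratios between 1.03 and 1.09 with intervals that included 1.

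Of the regulators, Srebf2, which encodes the SREBP factor of cholesterol genes, stood at 121 and 138 CPM with a ratio of 1.15 (1.07 to 1.22), under the fold that was counted. Srebf1 had a ratio of 1.09 (0.978 to 1.22), and Insig1, an SREBP retention factor, 1.10 (0.955 to 1.26). The listed genes of fatty acid synthesis lay nearer to 1, unlike the unlisted elongase Elovl6, given below, at 0.741 (0.631 to 0.869). The ratio was 0.902 (0.790 to 1.03) for the fatty acid synthase Fasn, 1.00 (0.803 to 1.25) for the acetyl-CoA carboxylase Acaca, 1.04 (0.967 to 1.12) for the ATP citrate lyase Acly and 1.07 (0.973 to 1.18) for the desaturase Scd2.

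The higher level of these genes went with more cells that held a molecule of them. Idi1 was found in 5.47% of T cells at 4 h and 7.76% at 8 h, a ratio of shares of 1.42 (1.21 to 1.66), and in 7.82% of saline T cells. After every cell was thinned to 1500 molecules, the shares were 3.29% and 4.90%. Sqle was found in 1.97% and 3.20% of T cells. Among 277 B cells of the 2 pools, whose median depth was 2403 molecules at 4 h and 2045 at 8 h, 4.69% held Idi1 and 2.53% Sqle, so these cells carried the same transcripts and give no background share.

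In CD4 T cells the same difference was larger for several enzymes. Idi1 stood at 30.2 CPM at 4 h and 53.8 at 8 h (saline 47.8), a ratio of 1.78 (1.46 to 2.19), and led the ranked genes of that population. Sqle had a ratio of 1.79 (1.29 to 2.50) there. Cyp51 and Nsdhl, with ratios of 1.41 (1.13 to 1.75) and 1.47 (1.04 to 2.10), were also among the 7 members counted as higher, against 2.31% of all genes. In CD8 T cells 2 members were counted as higher, against 2.14% of all genes, Insig1 at 1.49 (1.17 to 1.89) and Sc5d at 1.25 (1.03 to 1.53), and Fasn was counted as lower at 0.807 (0.652 to 0.996). Idi1 and Sqle had CD8 ratios of 1.18 and 1.17, with intervals that included 1, and 17 of the 21 members with 100 molecules there lay above 1. The difference between CD4 and CD8 T cells was not tested.

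**Figure D1:**
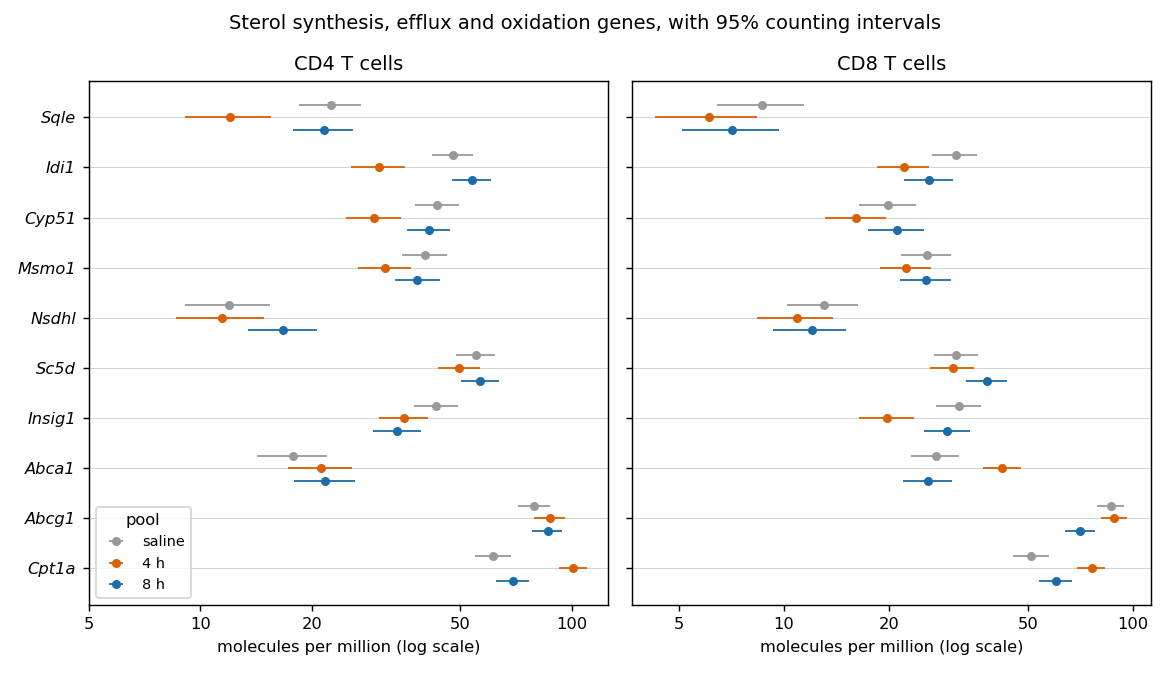
Levels of sterol synthesis genes, Insig1, the cholesterol exporter genes and Cpt1a in CD4 (left) and CD8 (right) T cells, in CPM on a log scale. Points are pools (grey saline, orange 4 h, blue 8 h) and bars are exact 95% Poisson intervals. For Idi1 in CD4 T cells the orange point lies at 30.2, left of the blue at 53.8, and for Abca1 in CD8 T cells the orange point lies at 42.1, right of the blue at 25.8.

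Summed over the 30 sterol and fatty acid genes, the level was higher at 8 h in each of the 4 classes set by Cd4 and Cd8 molecules. The sums were 859 CPM at 4 h and 995 at 8 h in CD4 T cells, a ratio of 1.16 (1.11 to 1.21), and 680 and 756 CPM in CD8 T cells, 1.11 (1.06 to 1.16). They were 1.14 (1.04 to 1.25) in cells with both and 1.16 (1.09 to 1.24) in cells with neither. Cells with the regulatory T cell factor Foxp3 had a ratio of 1.11 (1.01 to 1.23). CD4 T cells with no molecule of Foxp3 or of the effector genes Ccl5, S100a4 and Itgb1, a gate that keeps mostly naive cells, had a ratio of 1.2 (1.14 to 1.26), from 828 to 994 CPM. In CD8 T cells with an effector molecule it was 1.06 (0.983 to 1.15).

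The cholesterol exporter genes and Cpt1a lay on the other side. Abca1, the exporter of cholesterol to apolipoproteins (chr4:53030787-53159895), stood at 33.0 CPM at 4 h and 24 at 8 h (saline 22.5), a ratio of 0.727 (0.630 to 0.838). In CD8 T cells the levels were 42.1 and 25.8 CPM (saline 27.2), with a ratio of 0.614 (0.498 to 0.754). In CD4 T cells Abca1 stood at 21.1 and 21.7 CPM, 1.03 (0.780 to 1.36). Abcg1, the exporter to HDL, was also counted as lower in CD8 T cells, with 88.3 and 70.6 CPM (saline 86.3) and a ratio of 0.80 (0.701 to 0.911). Its 4 h level lay close to saline there, unlike that of Abca1. In CD4 T cells Abcg1 had a ratio of 0.985. Mylip, an LXR target, had a ratio of 0.900 (0.836 to 0.969) in all T cells, under the fold that was counted.

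Cpt1a, the carnitine palmitoyltransferase that admits long-chain fatty acids to mitochondria (chr19:3322334-3385733), was lower at 8 h in both populations. It stood at 101 CPM at 4 h and 69.4 at 8 h in CD4 T cells (saline 61.4), a ratio of 0.687 (0.598 to 0.788). Among CD8 T cells it stood at 76.0 and 60.0 CPM (saline 51.0), 0.790 (0.685 to 0.910). Elovl6, a fatty acid elongase among the lowest-ranked CD4 genes, had ratios of 0.630 (0.475 to 0.831) in CD4 and 0.727 (0.568 to 0.927) in CD8 T cells. The enzymes of the oxidation spiral itself did not follow. Hadha, Hadhb, Acadl and Acadvl had ratios between 0.954 and 1.03 in all T cells, and Acadm was counted as higher in CD8 T cells, at 1.22 (1.05 to 1.41). Of the 17 members of the oxidation and lipid sensing list with 100 molecules, 0 were counted as higher and 2 as lower, against 1.28% and 2.90% of all genes, and the median log2 ratio was -0.04.

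Outside the sterol genes, the 12 genes with the highest lower bounds in all T cells held few with a shared role. Flna, the actin crosslinker filamin A (chrX:74223461-74249820), was the most abundant of them, with 329 CPM at 4 h and 408 at 8 h (saline 396) and a ratio of 1.24 (1.19 to 1.29). Its ratio was 1.30 (1.21 to 1.38) in CD8 T cells, and 1.19 (1.12 to 1.27) in CD4 T cells, under the fold that was counted. Dnah8, annotated as an axonemal dynein heavy chain, stood at 58.7 and 77.8 CPM (saline 81.3), with ratios of 1.33 (1.21 to 1.45) in all, 1.34 in CD4 and 1.33 in CD8 T cells. Cdk5rap1, a tRNA-modifying enzyme of mitochondria, stood at 20.5 and 31.6 CPM (saline 23.8), 1.55 (1.33 to 1.80), and was at 1.58 (1.25 to 2.0) in CD8 and 1.19 (0.926 to 1.52) in CD4 T cells. Cars, the cytosolic cysteinyl-tRNA synthetase, and Ccpg1, a receptor of endoplasmic reticulum autophagy, both had a ratio of 1.46 in all T cells. Nacc2 and 2310057M21Rik had ratios of 1.40 and 1.41.

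Pou2af1, a coactivator best known from B cells, had a ratio of 1.38 (1.17 to 1.64), with 17.5 CPM at 4 h and 24.2 at 8 h. The summed level of the 12 B cell markers stood at 554 CPM at 4 h and 661 at 8 h in these T cells (saline 481), a ratio of 1.19 (1.16 to 1.23), with 11 of the 12 markers above 1 and none at 0. Without cells that held a B, myeloid or red cell molecule, the ratio of Pou2af1 was 1.44. In CD4 T cells Pou2af1 had a ratio of 1.86 (1.33 to 2.61), and 1 cell held 14.4% of its molecules at 8 h. The B cell sum stood at 425 and 643 CPM there, with 6 of the 12 markers above 1. Of the summed molecules, Ighm held 1574 of 2054 at 4 h and 2857 of 3382 at 8 h. Its CD4 ratio was 1.67, and 0.963 (0.895 to 1.04) without cells that held a B, myeloid or red cell molecule.

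The 12 genes with the lowest upper bounds began with Gm47283. It stood at 175 CPM at 4 h and 121 at 8 h (saline 185), a ratio of 0.693 (0.651 to 0.737), and at 0.666 in CD4 and 0.678 in CD8 T cells. GENCODE places this symbol on the Y chromosome (chrY:90784738-90816464), and the mice are labelled female, so the molecules may belong to a near-identical copy and the identity of the gene is uncertain. Itgae, the integrin chain CD103 of intraepithelial and regulatory T cells, stood at 47.8 and 34.3 CPM (saline 39.2), a ratio of 0.717 (0.636 to 0.807), and 0.780 (0.686 to 0.886) in CD8 T cells. Arhgap15, a GTPase-activating protein for Rac, was abundant, at 218 and 176 CPM (saline 182), with ratios of 0.808 in all, 0.857 in CD4 and 0.762 in CD8 T cells. Casp1, the inflammasome caspase, stood at 14.9 and 10.2 CPM (saline 9.37), 0.687 (0.552 to 0.853). Skap2, an adaptor of integrin signalling, stood at 15.2 and 10.4 CPM (saline 8.64), 0.680 (0.547 to 0.843). The ratios of Gpr55, a lysolipid receptor, of Gpsm2, which orients the spindle, of Tmlhe, the first enzyme of carnitine synthesis, of Prrt1 and of 1110008L16Rik lay between 0.617 and 0.753.

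Klrb1c, which encodes NK1.1 of NK and natural killer T cells, was also among them. It stood at 14.9 CPM at 4 h and 9.86 at 8 h (saline 7.55), a ratio of 0.663 (0.531 to 0.825). Cells with a molecule of Klrb1c or of Zbtb16, the transcription factor of natural killer T cells, made up 2.73% of T cells at 4 h and 1.95% at 8 h, a ratio of 0.714 (0.547 to 0.930), and 1.64% in saline.

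**Figure D2:**
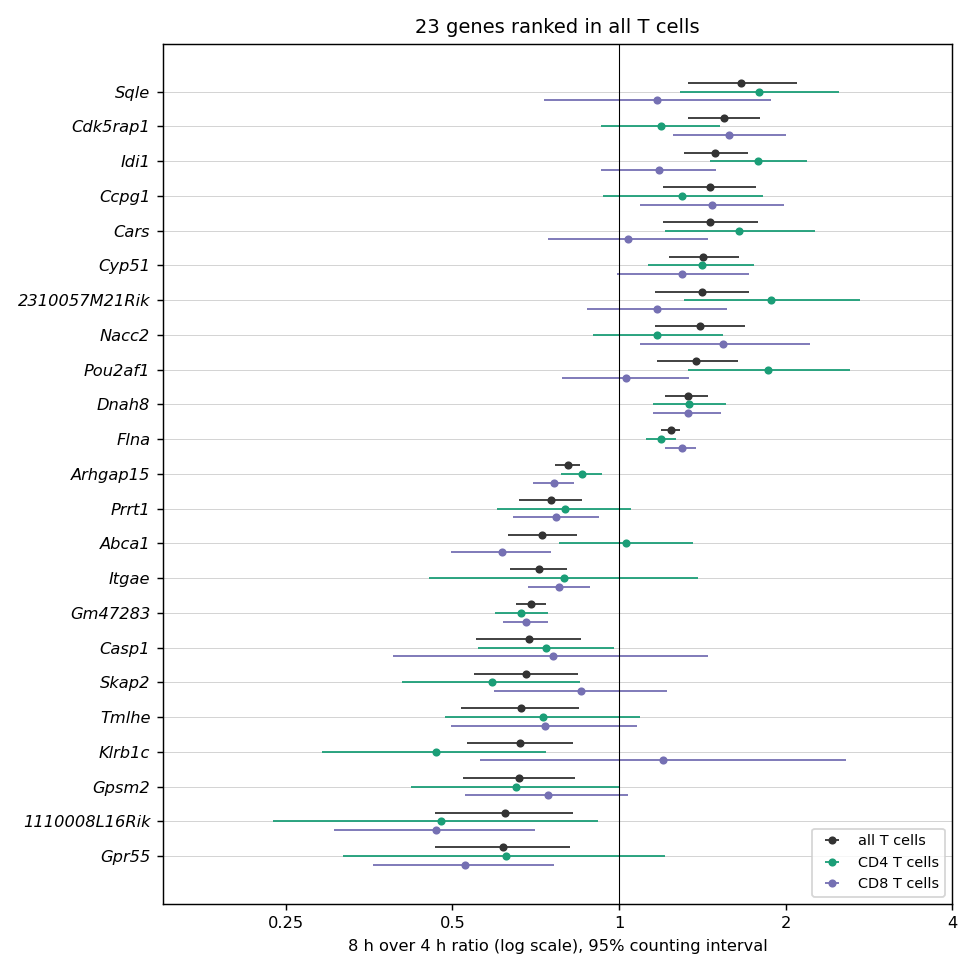
Ratios of the 8 h to the 4 h level (log scale, with exact 95% counting intervals) for 23 of the genes ranked highest and lowest in all T cells, in all (black), CD4 (green) and CD8 (purple) T cells. Flna and Dnah8 lie above 1 and Gm47283 and Arhgap15 below 1 in all 3 populations, while Klrb1c lies below 1 in CD4 and above 1 in CD8 T cells, where its interval is wide.

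Ranked within CD4 T cells, Jun was among the 6 highest genes. This AP-1 subunit stood at 19 CPM at 4 h and 31.8 at 8 h (saline 26.7), a ratio of 1.67 (1.29 to 2.18), against 1.04 (0.778 to 1.40) in CD8 T cells. Ephx1, the microsomal epoxide hydrolase, stood at 70.1 and 107 CPM in CD4 T cells (saline 95.3), 1.52 (1.33 to 1.75), and on the other side in CD8 T cells at 0.849 (0.732 to 0.984). The long non-coding RNA Dubr and the ubiquitin ligase adaptor Klhdc10 had CD4 ratios of 1.5 and 1.54. The lowest CD4 genes beside Cpt1a, Elovl6 and Gm47283 were Top3b, a topoisomerase, at 0.629, the glycosyltransferase Mgat4a at 0.645 and Dap at 0.736. Within CD8 T cells the highest beside Flna, Cdk5rap1 and Insig1 were Tsr2, Fam20b and Slc25a16, with ratios between 1.46 and 1.54. The lowest CD8 genes beside Abca1, Arhgap15 and Gm47283 were the autophagy-related Calcoco1 at 0.691, Polr3a, the catalytic subunit of RNA polymerase III, at 0.622, and the mitochondrial cysteinyl-tRNA synthetase Cars2 at 0.640.

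All 40 interferon response genes had 100 molecules in all T cells. Of these, 10 had a ratio above 1, against 43.4% of all genes, and 30 below it, with a median log2 ratio of -0.08 against -0.02 over all genes. The differences were small, with 0 counted as higher and 2 as lower, a share near the 2.90% of all genes. Rsad2 stood at 10.3 CPM at 4 h and 7.88 at 8 h (saline 5.96), a ratio of 0.762 (0.590 to 0.981). Oasl2, of the oligoadenylate synthetase family, stood at 20.1 and 16 CPM (saline 16.3), 0.797 (0.666 to 0.953). For Ifit1, whose product binds foreign RNA, the values were 63.3 and 53 CPM (saline 48.4) with a ratio of 0.837 (0.758 to 0.923). Isg15 and Usp18, the modifier and the protease that removes it, had ratios of 0.846 and 0.860. Among the most abundant members, Ifi203 had a ratio of 0.975, Slfn1 0.958 and Ifi47 0.922, and Ifi27l2a lay above 1 at 1.07 (1.03 to 1.12).

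The interferon list was also measured in CD4 and CD8 T cells apart, and their difference was not tested. Among CD8 T cells 30 of 37 members lay below 1, against 4460 of all 8192 genes. The median log2 ratio was -0.12, and 3 members were counted as lower, against 3.0% of all genes. These were Ifit1, with 60.0 and 42.8 CPM and a ratio of 0.714 (0.605 to 0.841), Xaf1 at 0.808 (0.710 to 0.919) and Igtp at 0.783 (0.702 to 0.874). Among CD4 T cells the median was -0.03, against -0.02 over all genes, so the list lay close to all genes there. Of its 36 members 21 lay below 1, against 4378 of all 8053 genes. Isg15 (0.770) and Oasl2 (0.713) were counted as lower, against 3.49% of all genes, while Ifit1 stood at 62.4 and 61.6 CPM. Cells with a molecule of Ifit1, Ifit3 or Rsad2 made up 14.7% of CD8 T cells at 4 h and 12.2% at 8 h (saline 12.2%), a ratio of 0.833 (0.700 to 0.991), and 11.4% and 11.3% of CD4 T cells. Such cells made up 2.17% of B cells. The summed level of the 40 genes was lower in CD4 T cells without effector molecules, with 5007 and 4640 CPM, and was higher in those with an effector molecule, with 4918 and 5248 CPM. Their ratios were 0.927 (0.907 to 0.947) and 1.07 (1.03 to 1.10).

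Several feedback inhibitors of cytokine signalling were lower at 8 h. The SOCS proteins block JAK kinases once cytokine receptors have signalled. Socs3 stood at 57.9 CPM at 4 h and 44.7 at 8 h (saline 46.2), a ratio of 0.772 (0.695 to 0.858), and was counted as lower in CD4 (0.808) and in CD8 T cells (0.716). Socs1 stood at 44.9 and 36.6 CPM (saline 46.3), 0.815 (0.724 to 0.917), and Socs2 at 11 and 8.09 CPM (saline 5.30), 0.737 (0.573 to 0.944). Jak3, the kinase of the common gamma chain, stood at 37.8 and 29.8 CPM (saline 31.7), 0.788 (0.692 to 0.897). The other feedback gene of the list, Cish, had a ratio of 1.06 (0.880 to 1.27). The receptors themselves lay near 1, with Il7r at 1.04, Il2rg at 0.993, Il2rb at 0.974 and Il6st at 1.01. Of the 26 members 0 were counted as higher and 4 as lower, against 1.28% and 2.90% of all genes, and the median log2 ratio was -0.04.

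Bcl3, an atypical nuclear inhibitor of NF-kB, was lower in both populations. It stood at 50.2 CPM at 4 h and 40.1 at 8 h in CD4 T cells (saline 29.1), 0.799 (0.661 to 0.964), and at 31.4 and 22 CPM in CD8 T cells (saline 17.8), 0.702 (0.556 to 0.883). The median log2 ratio of the NF-kB list was 0.05 in CD4 T cells, with 10 of 18 members above 1. It was -0.13 in CD8 T cells, with 6 of 17 above 1, a difference that was not tested. In each population 45.6% of all genes lay above 1. Of the 18 CD4 members 2 were counted as higher and 2 as lower, against 2.31% and 3.49% of all genes. Of the 17 CD8 members 0 were higher and 1 lower, against 2.14% and 3.0%. Within CD4 T cells Birc3, an inhibitor of apoptosis, was counted as higher at 1.25 (1.04 to 1.51), and Nfkbie, an inhibitor of NF-kB, as lower at 0.782 (0.636 to 0.961). Cd83, an activation antigen also present on B cells and dendritic cells, stood at 8.22 and 15.3 CPM in all T cells (saline 7.85), 1.87 (1.48 to 2.36), with the B cell marker sum higher as given above, and the ratio without B, myeloid or red cell molecules was 1.85.

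Among the genes of apoptosis, Bcl2, which protects lymphocytes from death, was higher at 8 h in CD4 T cells, with 148 and 182 CPM (saline 189) and a ratio of 1.23 (1.12 to 1.36). It was higher in CD8 T cells too, with 180 and 218 CPM (saline 211), 1.21 (1.12 to 1.32). Bad, a proapoptotic relative of Bcl2, was counted as lower in CD4 T cells at 0.706 (0.504 to 0.984). Of the 17 members with 100 molecules in all T cells 0 were counted as higher and 2 as lower, against 1.28% and 2.90% of all genes.

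Only 23 genes were counted on the same side in CD4 and in CD8 T cells, 9 higher and 14 lower, of 7847 with 100 molecules in both. The higher genes were Bcl2, Dnah8, Pdia6, an endoplasmic reticulum disulfide isomerase, the transcription factor gene Sox4, Fbxo32, Klhl5, Stard3nl, 2310061I04Rik and the immunoglobulin chain gene Igkc. Igkc had ratios of 6.79 and 1.41, and 92.7% of its CD4 molecules at 8 h lay in 1 cell. Without cells that held a B, myeloid or red cell molecule its CD4 ratio was 0.945 (0.722 to 1.24). The lower genes included Socs3, Bcl3, Cpt1a, Elovl6, Mgat4a and Gm47283 and the interferon-induced Iigp1 and Plac8. Plac8 stood at 154 CPM at 4 h and 123 at 8 h in CD8 T cells (saline 126), a ratio of 0.801 (0.726 to 0.885). In CD4 T cells its ratio was 0.613 (0.400 to 0.930), and 1.37 (0.728 to 2.64) without innate-like cells, with 18 and 27 molecules left. Appl2, Mindy1, Rhot1, Unc119b and Zfp1 were also among the 14. A further 22 genes were counted on opposite sides.

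**Figure D3:**
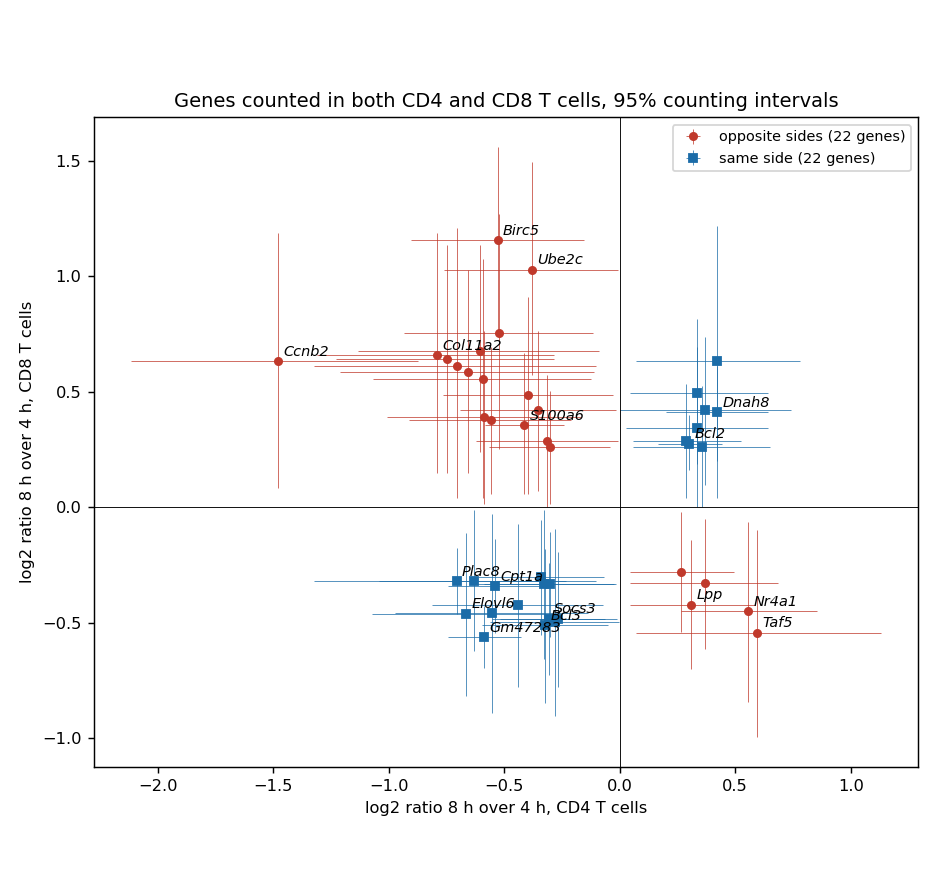
Log2 ratios of 8 h over 4 h in CD4 (horizontal) and CD8 (vertical) T cells for the genes counted in both, with exact 95% counting intervals. The 22 red circles lie on opposite sides of 0 and the 22 blue squares on the same side, with Igkc left out of the plot; most red circles, among them Ccnb2 and Birc5, lie left of 0 and above 0.

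Early activation genes are those that T cell receptor signals induce within the hour. The median log2 ratio of the list was 0.08 in CD4 T cells, with 15 of 22 members above 1. It was 0.04 in CD8 T cells, with 12 of 20 above 1, against 45.6% of all genes in each population. Among CD4 T cells 3 of the 22 members were counted as higher and 0 as lower, against 2.31% and 3.49% of all genes. The orphan receptor gene Nr4a1 stood at 32.7 CPM at 4 h and 48.1 at 8 h there, a ratio of 1.47 (1.2 to 1.81), and the AP-1 subunit Fos at 31.8 and 41.3 CPM, 1.30 (1.05 to 1.60). Jun was the other. Within CD8 T cells 2 of 20 members were higher and 4 lower, against 2.14% and 3.0% of all genes, and the difference from CD4 T cells was not tested. Cd69, which retains cells in tissue, stood at 71.0 and 87.6 CPM, 1.23 (1.08 to 1.41), and Egr1 at 90.6 and 111 CPM, 1.23 (1.09 to 1.38). Nr4a1 was lower in CD8 T cells at 0.732 (0.557 to 0.957), Nr4a3 at 0.393 (0.253 to 0.595), Egr2 at 0.711 (0.507 to 0.992) and the cytokine gene Tnf at 0.720 (0.525 to 0.983).

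A few cells held many of these molecules. In CD8 T cells the richest cell held 12.4% of Nr4a1 molecules at 4 h and 13.7% at 8 h. It held 11.6% and 9.38% of those of Nr4a3, and 7.61% and 6.45% of those of Egr2. CD8 T cells with Nr4a1 numbered 39 and 46, those with Egr2 35 and 41, and those with Nr4a3 43 and 26. In all T cells the richest cell held 4.81% of Egr2 molecules at 4 h and 5.38% at 8 h, and 9.65% and 7.63% of Nr4a3 molecules. While molecules of Egr2 were fewer at 8 h, with 22.1 and 15.8 CPM (saline 23.5) and a ratio of 0.716 (0.60 to 0.853), cells with a molecule of Egr2, Egr3 or Nr4a1 were more, at 5.26% and 6.31% of T cells (saline 6.50%). That ratio of shares was 1.2 (1.02 to 1.42), and 1.18 (0.968 to 1.45) after thinning. Among B cells the share was 15.9%. The abundant members Jund (1.05), Junb (1.11), Dusp2 (0.957) and Ier5 (1.05) lay close to 1. Tnfrsf9, the costimulatory receptor 4-1BB, was counted as higher in CD4 T cells, with 24.2 and 39.9 CPM (saline 36.3) and a ratio of 1.65 (1.31 to 2.09).

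Several memory and effector genes were lower at 8 h in CD4 T cells, and the difference from CD8 T cells was not tested. Within CD4 T cells 18 of the 25 members with 100 molecules had a ratio below 1, against 4378 of all 8053 genes. The median log2 ratio was -0.13. Of the 25, 9 were counted as lower and 2 as higher, against 3.49% and 2.31% of all genes. The chemokine receptor gene Cxcr6 stood at 45.5 CPM at 4 h and 24.7 at 8 h (saline 24.2), 0.544 (0.434 to 0.678). Il18rap, a chain of the IL-18 receptor, stood at 16.5 and 8.18 CPM, 0.494 (0.333 to 0.725). The calcium-binding protein genes S100a4 (53.3 and 36.7 CPM) and S100a6 (128 and 95.9 CPM) had ratios of 0.688 and 0.751, and Anxa2 had 0.663. Ratios of Ccr2, Cxcr3, Runx3 and Id2 lay between 0.738 and 0.826. The 2 higher members were Maf, with 146 and 177 CPM and a ratio of 1.21 (1.10 to 1.34), and Eomes, with 9.72 and 19.2 CPM and 1.98 (1.39 to 2.86).

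Among CD8 T cells the list had a median log2 ratio of 0.06. Of its 22 members with 100 molecules, 3 were counted as higher and 0 as lower, against 2.14% and 3.0% of all genes. These were S100a6 at 1.28 (1.04 to 1.59), Ahnak at 1.22 (1.12 to 1.33) and Lgals1 at 1.21 (1.10 to 1.34). Without innate-like cells the ratio of S100a6 was 1.03. The share of cells with Ccl5, S100a4 or Itgb1 was nearly equal, at 22.8% and 23.1% of CD4 T cells and 27.1% and 27.6% of CD8 T cells, and such cells made up 15.5% of B cells. Markers of innate-like T cells were measured beside the CD4 difference. Cells with Klrb1c or Zbtb16 made up 2.09% of CD4 T cells at 4 h and 1.34% at 8 h, a ratio of 0.639 (0.376 to 1.07). The summed level of the 8 natural killer T cell markers stood at 338 and 308 CPM there, a ratio of 0.911 (0.850 to 0.976), with 5 of the 8 below 1. These markers include Cxcr6, Il18rap and Tbx21 of the memory and effector list, so the sum partly counts the same molecules again. The 10 gamma delta T cell markers stood at 86.0 and 87.5 CPM in CD4 T cells, 1.02 (0.889 to 1.16). The 10 neutrophil markers summed to 33.1 CPM at 4 h and 1.9 at 8 h in CD4 T cells, or 160 and 10 molecules, with none above 1, and to 1.64 and 2.60 CPM in CD8 T cells. Without cells that held a B, myeloid or red cell molecule, a set that includes the neutrophil genes S100a8 and S100a9, the CD4 ratios were 0.662 for S100a4, 0.707 for S100a6, 0.585 for Anxa2, 0.738 for Ccr2 and 0.499 for Il18rap. With the mix of classes held fixed the CD4 median was -0.11, and without innate-like cells it was -0.14. Within CD4 T cells that held an effector molecule the summed level of the list was 7271 and 6407 CPM, a ratio of 0.881 (0.856 to 0.907), and in those without it was 1429 and 1465 CPM, 1.02 (0.985 to 1.07).

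Of the 24 chemokine receptor and G protein signalling genes with 100 molecules in all T cells, 7 had a ratio above 1, against 43.4% of all genes, 0 were counted as higher and 4 as lower, against 1.28% and 2.90% of all genes, with a median log2 ratio of -0.08. Ccr4, a receptor of helper and regulatory T cells, stood at 8.29 and 4.33 CPM (saline 7.77), 0.522 (0.377 to 0.718). Ccr9, the gut-homing receptor found on naive CD8 T cells of mice, stood at 138 and 114 CPM (saline 114), 0.826 (0.773 to 0.883). Adora2a, the adenosine receptor gene, had a ratio of 0.786 (0.647 to 0.955), and Cxcr6 was the other. Cxcr4, a receptor for bone marrow chemokine, was counted as lower in CD8 T cells, with 79.6 and 64.7 CPM (saline 95.8) and 0.813 (0.709 to 0.933).

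Some genes of effector molecules were higher at 8 h in CD8 T cells, in few cells. Of the 13 members of the cytokine and effector list with 100 molecules there, 7 lay above 1 and 6 below. Among them 4 were counted as higher and 1, Tnf, as lower, against 2.14% and 3.0% of all genes. Gzma and Gzmb encode granzymes, and Ccl4 and Xcl1 chemokines of killer cells. Gzma stood at 20.4 CPM at 4 h and 43.2 at 8 h in CD8 T cells (saline 52.6), a ratio of 2.12 (1.7 to 2.65), and the richest cell held 38.7% and 26.9% of those molecules. Without cells that held a B, myeloid or red cell molecule, 11 of the 124 Gzma molecules at 4 h and 200 of the 249 at 8 h were left, a ratio of 18.9 (10.4 to 38.5). With each cell weighted equally the ratio was 3.3. In all T cells it was found in 30 cells at 4 h and 35 at 8 h. The CD8 ratio was 2.54 (1.71 to 3.83) for Gzmb, 5.54 (3.22 to 10.1) for Ccl4 and 1.41 (1.15 to 1.72) for Xcl1, with 1 cell holding 12.4% to 38.1% of the molecules at 8 h. The ratio of Gzmb was 3.99 with each cell weighted equally, and that of Xcl1 was 2.43 (1.86 to 3.21) without innate-like cells. More abundant effector genes lay near 1, with Nkg7 at 0.994 (0.943 to 1.05) and Prf1, the perforin gene, at 1.06 (0.896 to 1.25) in CD8 T cells. Ccl5 stood at 409 and 462 CPM there, 1.13 (1.07 to 1.19).

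Several proliferation genes were lower at 8 h in CD4 T cells and several were higher in CD8 T cells, a difference that was not tested. Among CD4 T cells 5 of 19 members with 100 molecules were counted as lower and 0 as higher, against 3.49% and 2.31% of all genes, with a median log2 ratio of -0.11. Mki67, the marker of dividing cells, stood at 69.7 CPM at 4 h and 46.4 at 8 h (saline 68.2), 0.666 (0.562 to 0.788), the mitotic cyclin Ccnb2 at 17.0 and 6.09 CPM, 0.359 (0.231 to 0.546), and the chromatin protein gene Hmgb2 at 460 and 357 CPM, 0.776 (0.730 to 0.826). Rrm2, a subunit of ribonucleotide reductase, and Birc5, survivin, had ratios of 0.760 and 0.693. Within CD8 T cells all 17 members with 100 molecules had a ratio above 1, against 45.6% of all genes, 7 were counted as higher, against 2.14%, and the median was 0.24. The topoisomerase gene Top2a stood at 37.5 and 70.2 CPM, 1.87 (1.59 to 2.21), the cyclin gene Ccna2 at 6.41 and 19.6 CPM, 3.06 (2.11 to 4.52), and Birc5 at 13 and 29.0 CPM, 2.23 (1.7 to 2.95). Rrm1, Rrm2, Ccnb2 and Stmn1 had ratios between 1.32 and 1.55.

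The number of cells with a molecule of a division gene was measured too. Cells with a molecule of Mki67 or Top2a numbered 80 at 4 h and 59 at 8 h in CD8 T cells, or 3.89% and 3.03% (saline 3.91%), a ratio of 0.780 (0.548 to 1.11). By single genes, CD8 T cells with Top2a numbered 65 and 51 and those with Mki67 27 and 28, while those with Ccna2 numbered 8 and 18, with the kinase gene Cdk1 10 and 20, with the cyclin gene Ccnb1 15 and 23, with Rrm2 25 and 35, and with Birc5 19 and 22. Within CD4 T cells they numbered 114 and 102, or 6.11% and 5.05% (saline 5.39%), a ratio of 0.826 (0.626 to 1.09). Among B cells the share was 5.78%. Single cells weighed on these genes, with up to 18.4% of the Top2a molecules, 21.5% of those of Birc5 and 25.3% of those of Rrm2 in 1 cell of a population and pool. For Ccna2, 1 cell held 43.6% of the 39 molecules in CD8 T cells at 4 h. The summed level of the 20 genes stood at 2228 and 2076 CPM in CD4 T cells, a ratio of 0.932 (0.907 to 0.957), and at 1997 and 2316 CPM in CD8 T cells, 1.16 (1.13 to 1.19). In the few cells with both Cd4 and Cd8 molecules, of which 269 and 270 were found, the sum stood at 3966 and 2899 CPM.

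**Figure D4:**
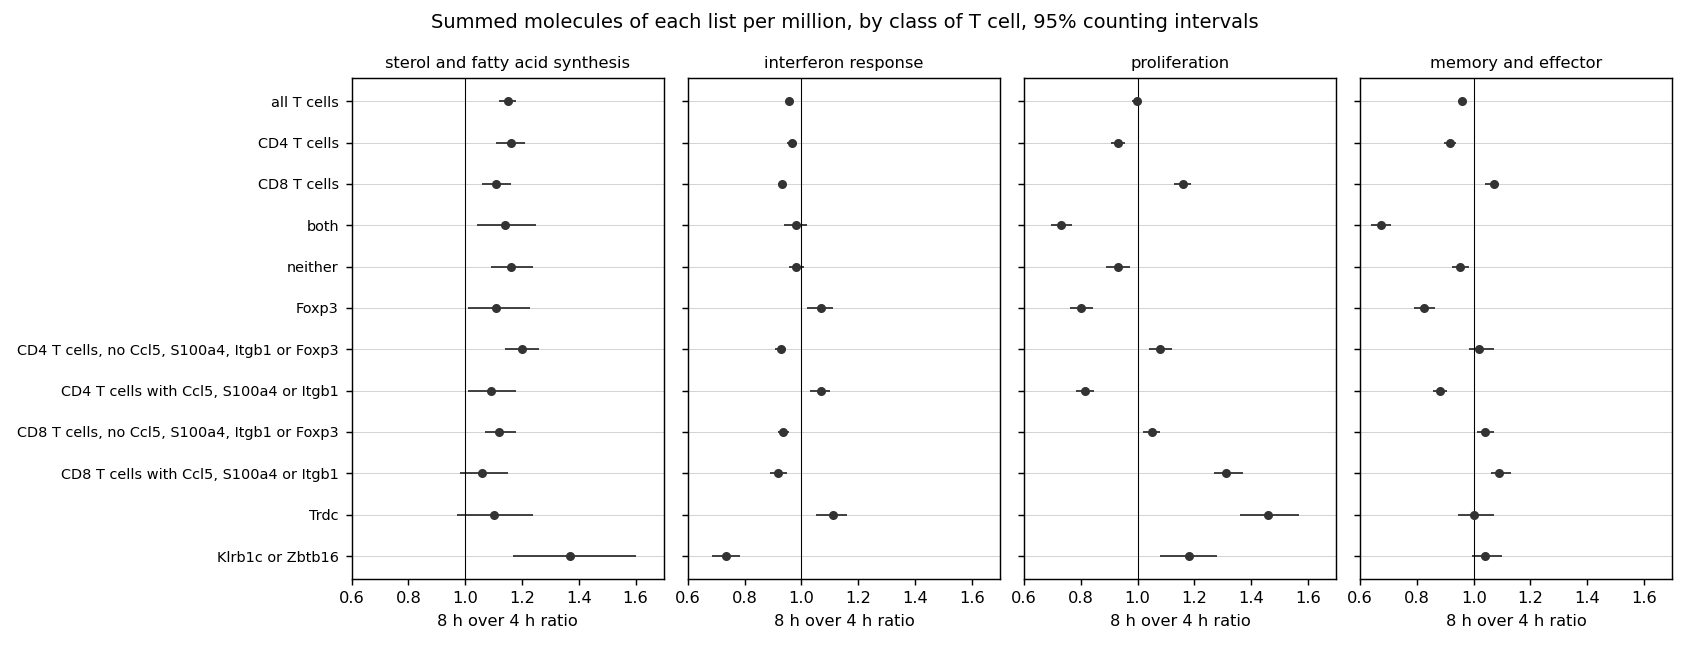
Ratios of the 8 h to the 4 h summed level of 4 gene lists in 12 classes of T cells, with exact 95% counting intervals. Classes named by a gene hold cells with at least 1 molecule of it. The sterol and fatty acid points lie at 1.06 or more in every class shown, whereas the proliferation points lie on both sides of 1, at 0.932 in CD4 and 1.16 in CD8 T cells.

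Of the 14 unfolded protein response genes with 100 molecules in all T cells, 11 had a ratio above 1, against 43.4% of all genes, and none was counted on either side. The median log2 ratio was 0.08. Pdia6 was counted as higher in CD4 and in CD8 T cells, at 1.22 in each, and Manf, a secreted chaperone cofactor, in CD8 T cells at 1.22 (1.06 to 1.40). Ddit3, the stress factor CHOP, was counted as lower in CD8 T cells, with 20.5 and 15.1 CPM and a ratio of 0.734 (0.552 to 0.973). Xbp1, a factor of the same response that plasma cells express strongly, was counted in CD4 T cells at 1.21 (1.02 to 1.45), where 1 cell held 12.5% of its molecules at 8 h and the summed level of the 10 plasma cell markers stood at 77.5 CPM at 4 h and 165 at 8 h.

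Several further lists lay close to the median of all genes. Of the 20 glucocorticoid response genes with 100 molecules, 10 lay above and 10 below 1, with a median log2 ratio of 0.01. Among them 0 were counted as higher and 1 as lower, against 1.28% and 2.90% of all genes. Tsc22d3, the glucocorticoid-induced leucine zipper gene, stood at 99.3 and 109 CPM (saline 147), a ratio of 1.10 (1.02 to 1.18). None of the 14 circadian clock genes was counted in all T cells, with a median of -0.01 and Per1 at 1.03 (0.851 to 1.24). Dbp, a clock output gene, was counted as higher in CD4 T cells at 1.34 (1.01 to 1.78) and Cry1, a clock repressor gene, as lower in CD8 T cells at 0.759 (0.60 to 0.958). The 29 genes of T cell receptor signalling had a median of 0.01 and 0 counted on either side. Medians were -0.01 for 24 genes of oxidative phosphorylation, -0.03 for 16 of glycolysis, 0.00 for 14 of heat shock and dissociation, and -0.02 for 20 naive and homing genes.

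Genes for targets of benzodiazepines were sparse. Of the 25 listed genes 19 were in the table and 5 had 100 molecules, with 0 counted on either side. Tspo, the mitochondrial protein that also binds benzodiazepines, stood at 104 and 100 CPM (saline 101), a ratio of 0.963 (0.894 to 1.04). Of the GABA(A) receptor subunits only Gabrr2 had 100 molecules, with 12.5 and 14.3 CPM (saline 17.2) and 1.14 (0.930 to 1.41). Every other GABA(A) subunit gene in the table had 4 or fewer molecules in each pool, near the floor of 3 molecules.

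**Figure D5:**
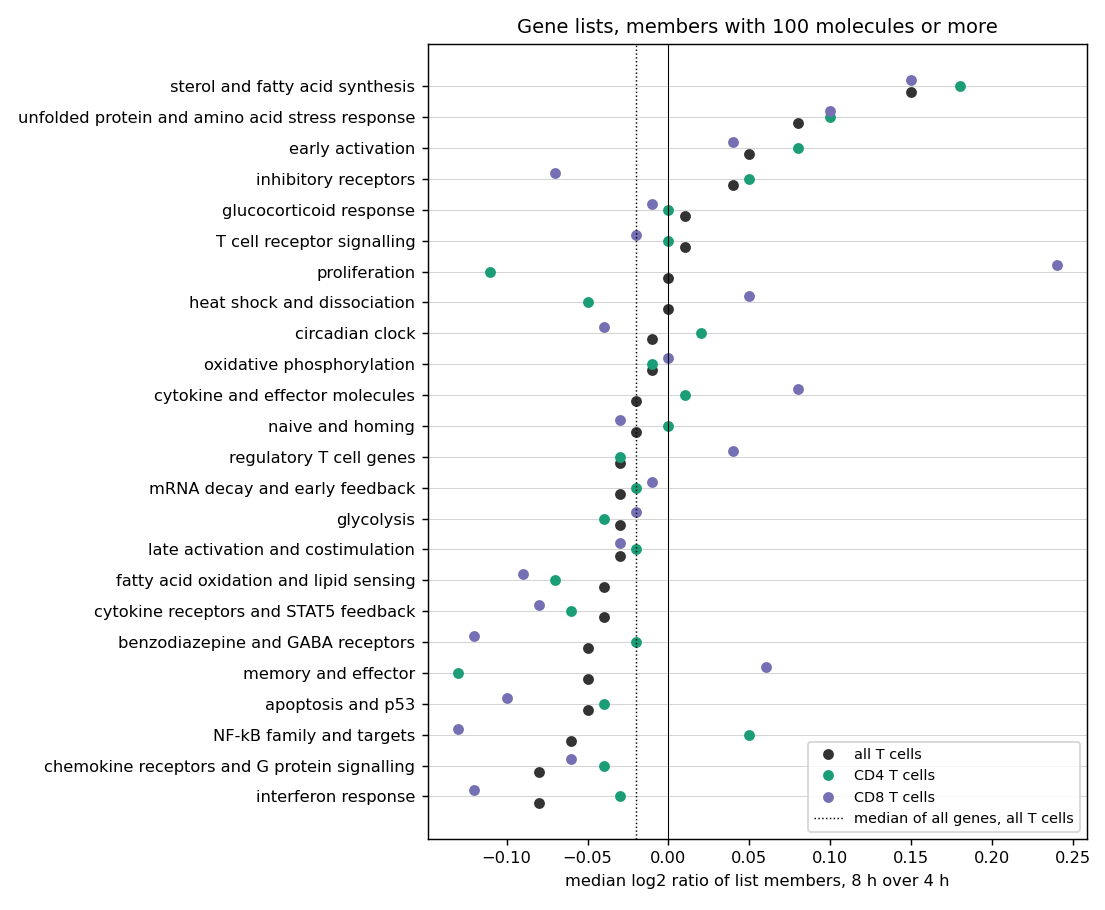
Median log2 ratio of 8 h over 4 h of the members of 24 gene lists with 100 molecules, in all (black), CD4 (green) and CD8 (purple) T cells; the dotted line is the median of all genes in all T cells, -0.02. The sterol and fatty acid synthesis list lies highest in all T cells, at 0.15, and the interferon response list and the chemokine receptor list lowest, at -0.08.

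Classes of T cells were counted by the molecules they held. CD4 T cells made up 36.3% of T cells at 4 h (95% Clopper-Pearson interval 35.0% to 37.7%) and 39.4% at 8 h (38.0% to 40.7%), a ratio of 1.08 (1.02 to 1.15), with 37.8% in saline. CD8 T cells made up 40.1% and 37.9%, a ratio of 0.946 (0.888 to 1.01). Cells with Foxp3 made up 4.93% and 5.36%, 1.09 (0.913 to 1.29), and cells with the gamma delta chain gene Trdc 5.2% and 4.48%, 0.862 (0.719 to 1.03). The summed level of the 10 gamma delta T cell markers was lower, at 243 and 177 CPM in all T cells (saline 197), a ratio of 0.728 (0.692 to 0.767). Cells with Mki67 or Top2a made up 4.91% and 4.01% of T cells (saline 4.25%), 0.818 (0.677 to 0.987), and 0.851 (0.668 to 1.08) after thinning. The share of cells with Klrb1c or Zbtb16, given above, was smaller at 8 h as well. In B cells the shares with Foxp3 and Trdc were 0.722% and 1.08%. The T cell markers themselves summed to 9681 and 9890 CPM, with none of the 10 at 0.

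Markers of other cells were measured in both pools. In all T cells the 10 neutrophil markers summed to 12.8 CPM at 4 h and 3.62 at 8 h (saline 1.31), with the CD4 values given above, the 12 myeloid markers to 129 and 108 CPM, and the 9 erythroid markers found to 14.7 and 14.4 CPM. The 10 dendritic cell markers summed to 215 and 182 CPM, a ratio of 0.849 (0.806 to 0.896), with 5 above 1 and 5 below. They include Ccr9, given above for naive CD8 T cells, and Bst2 of the interferon list. In CD8 T cells Ccr9 held 1557 of the 1986 summed molecules at 4 h and 1318 of the 1705 at 8 h. The class II invariant chain gene Cd74 stood at 56.8 and 94.8 CPM, a ratio of 1.67 (1.53 to 1.82), in 202 cells of each pool, and the class II chain genes H2-Aa and H2-Eb1 had ratios of 1.62 and 1.81. Without cells that held a B, myeloid or red cell molecule these ratios were 0.823 (0.679 to 0.996), 0.671 (0.450 to 0.994) and 0.684 (0.311 to 1.46). Cells with Cd79a, Ms4a1 or H2-Aa made up 2.71% and 2.47% of T cells, 0.914 (0.713 to 1.17). Among CD4 T cells Cd74 had a ratio of 1.02 (0.840 to 1.24). The part of these markers in the differences above was not tested beyond the ratios given without cells that held them.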

How the data were processed

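T cells from mouse spleens were profiled on the BD Rhapsody platform in 3 pools of 3 mice, each marked by a sample tag, in a single capture. The deposited values are counts of molecules per cell and gene, made by the authors with the BD WTA Multiplex Rhapsody Analysis Pipeline 1.9.1 on GRCm38 with GENCODE M19, per the file headers. The molecules had passed the pipeline's error correction and came from an aligner not given in the sources used here. Each cell's group came from the deposited table of tags and the authors' description of the files. Of 17299 cells, 1063 (6.14%) called as multiplets of tags, 60 undetermined and 2 with another tag were left out. No doublet caller was run, and about 532 doublets within a pool (3.29% of called cells) would be expected to remain.

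Counts were summed over the cells of each population and pool, and ratios of counts per 1000000 molecules were given exact conditional binomial 95% intervals, which cover counting error only. Intervals of ratios of shares were computed the same way, and intervals of shares are exact Clopper-Pearson. With 1 pool per time point no test was made. The genes named were the 12 highest and 12 lowest by interval bound in all T cells and the 6 highest and 6 lowest in CD4 and in CD8 T cells, among genes with 200 molecules and no cell holding 5% of a pool's molecules. Receptor segment, haemoglobin, mitochondrial and ribosomal protein genes were left out of this ranking. Of each of 24 gene lists, the 4 members with most molecules and those counted as higher or lower could be named, and also genes on opposite sides of 1 in CD4 and CD8 T cells. Some members of the lists and ranking are not reported here. Other genes named, and the promoters, were chosen after their values were seen. The members and lists were chosen with earlier results of these data known, so they are no independent support.

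Alternatives were TMM scaling (edgeR 4.0.16 in R 4.3.3), other minimums and folds, stricter cell filters, equal weight for each cell, a fixed mix of cell classes, raw molecules, and the removal of cells with molecules of other cell types. The removal of innate-like cells was chosen after seeing the data. Computation used scipy 1.17.1, numpy 2.4.6, matplotlib 3.10.9 and pandas 2.3.3 under Python 3.11.15, and the ratios were tested on simulated data. Gene coordinates are those of GENCODE on GRCm38.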

Additional observations from a re-analysis of the deposited data

Results flagged for a closer look

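In 22 genes the CD4 and the CD8 ratio of 8 h over 4 h were counted on opposite sides of 1, and the difference between the populations was not tested. Of the proliferation list they held Birc5, Ccnb2 and Rrm2, with CD4 and CD8 ratios of 0.693 and 2.23, 0.359 and 1.55, and 0.760 and 1.40. Other genes known from cell division are given together here, a grouping made after their values were seen. The CD4 and CD8 ratios were 0.811 and 1.2 for the kinetochore gene Cenpq, 0.679 and 1.30 for Cks2, and 0.666 and 1.31 for Hells. They were 0.635 and 1.5 for Plk4, the kinase of centriole duplication, 0.595 and 1.56 for Tpx2, and 0.768 and 2.04 for Ube2c. Pkmyt1, a kinase that inhibits CDK1, lay the other way at 1.29 and 0.796. A single cell held up to 41.9% of the Ube2c molecules of a population and pool, 25.3% for Rrm2, 21.5% for Birc5, 18.6% for Tpx2, 18.1% for Ccnb2 and 17.9% for Hells.

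Among the other genes, the CD4 and CD8 ratios were 0.751 and 1.28 for S100a6 and 1.47 and 0.732 for Nr4a1, with up to 14.8% and 13.7% of their molecules in 1 cell. Without innate-like cells the CD8 ratio of S100a6 was 1.03. The calcium pump gene Atp2b4 had 0.696 and 1.69, the collagen gene Col11a2 0.578 and 1.58, and the mitochondrial co-chaperone gene Grpel2 0.783 and 1.34. Higher ratios in CD8 T cells were also found for Itfg1 (0.804 and 1.22), Borcs7 (0.657 and 1.60), Dpy19l3 (0.663 and 1.47) and Zfp623 (0.613 and 1.53). Higher ratios in CD4 T cells were found for Taf5 (1.51 and 0.687), Zbtb38 (1.2 and 0.824) and Lpp (1.24 and 0.747). Of 7847 genes with 100 molecules in both populations, 39 had intervals on opposite sides of 1 and 109 on the same side.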

How the results depend on the processing

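The number of genes counted depended on the minimum and the fold. With no minimum of molecules 232 genes were higher and 420 lower in all T cells, 294 were higher in CD4 and 267 higher in CD8 T cells. With a minimum of 500 molecules the numbers higher and lower were 44 and 112 in all, 37 and 69 in CD4 and 32 and 71 in CD8 T cells. With a fold of 1.5 they were 25 and 43, 42 and 55, and 29 and 33. Every other alternative gave counts within 1.5 times those reported. TMM scaling moved the share of higher genes among those counted from 30.6% to 41.1% in all, from 39.8% to 48.7% in CD4 and from 41.6% to 49.3% in CD8 T cells. None of the 48 ratios of ranked genes changed sides of 1 where it had been counted. Of the 24 list medians in all T cells, 7 changed sign under at least 1 alternative, with values from -0.03 to 0.04 as reported and from -0.05 to 0.05 where changed; these were the circadian clock, cytokine and effector, glucocorticoid, inhibitory receptor, late activation, oxidative phosphorylation and regulatory T cell lists. With the cell mix held fixed or without innate-like cells, 4 of 24 medians changed sign in CD4 T cells and 2 of 24 in CD8 T cells, all between -0.04 and 0.04 as reported. Among counted genes of the lists that changed sides of 1 or moved by over 1.5 times, values are given in the report for Cd74, H2-Aa, H2-Eb1, Gzma, Gzmb, Xcl1, Plac8 and Igkc. The immunoglobulin gene Iglc2 in all T cells had a ratio of 1.34, and 0.90 without cells with B, myeloid or red cell molecules, and Ighm and Jchain in CD4 T cells had 1.67 and 21.7, and 0.963 and 1.3 without them. With the cell mix held fixed, the ratio of Klrb1c was 0.868 against 0.663, and one of the classes held fixed is set by molecules of Klrb1c itself. Without innate-like cells no ratio could be given for Klrb1c, since its molecules define those cells. Under TMM the median of T cell receptor signalling was 0.03 against 0.01. Removal of the richest cell of each pool kept all 48 ratios of ranked genes within their counting intervals. The ranking had left out genes with 5% or more of a pool's molecules in 1 cell. This removal could therefore move a ranked ratio only a little, and it is no separate check. The minimum of 500 molecules was not applied to single genes. No paired analysis was possible because each time point was 1 pool and the labels give no replicate numbers.

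The saline pool was taken at 0 h, so time of day and time after injection cannot be told apart. A gene with 100 molecules over both pools needed a ratio of at least 1.57 for its interval to leave out 1. The spread between mice of a pool was not measured.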
